A study of Mus musculus with 4 samples.

Results

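The subject is the group of microRNAs named miR-467 and miR-669, whose hairpins sit mostly inside the gene Sfmbt2 of the mouse. They were measured by TaqMan real-time PCR in C57BL/6 whole-embryo RNA of stage E18.5, in 2 samples lacking estrogen receptor alpha (ER-alpha KO; Esr1 encodes this nuclear receptor) and 2 wild-type samples. Every assay whose name, without species prefix, arm and part number, starts with miR-467 or miR-669 was taken, which gave 6 of the 375 microRNA assays of the panel: mmu-miR-467a, mmu-miR-467b, mmu-miR-467c, mmu-miR-467d, mmu-miR-467e and mmu-miR-669a. The labels give the genotype but not the knockout allele, nor how many embryos went into a sample, nor whether any placenta or yolk sac was included. Each well gives a threshold cycle (Ct), the cycle at which the product crosses a set fluorescence, so more RNA gives an earlier Ct, and a shift of 1 cycle is read as 1 log2 unit. In bulk RNA of a whole embryo, fewer cells that make a microRNA and less of it per cell cannot be told apart.

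Sfmbt2 encodes a Polycomb-group protein and in the mouse is imprinted, being read from the paternal copy in extraembryonic tissues. One of its introns holds a large rodent-specific run of microRNA hairpins built from simple repeats, which are transcribed with the host gene and known for high levels in placenta and in embryonic stem cells, and mice that lack the cluster have a defective placenta. As microRNAs, the mature products guide Argonaute proteins to messenger RNAs that match the seed, bases 2 to 8 from the 5′ end. In the GRCm38.p6 annotation 72 microRNA hairpins lie within Sfmbt2 on chromosome 2, of which 14 belong to miR-467, 29 to miR-669, 24 to miR-466 and 5 to miR-297. The name miR-467a is carried by 10 of these hairpins and the name miR-669a by 12, so either assay may read the product of many copies. The names miR-467b, miR-467c, miR-467d and miR-467e are carried by 1 hairpin each. Counted in order of coordinate, miR-467c is hairpin 13 of the 72, miR-467b is hairpin 25, and miR-467e and miR-467d are hairpins 53 and 55, close to each other at the other end of the miR-467 stretch.

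Of the 6 members, 0 matched a mature sequence in the RefSeq table used here (build GRCm38.p6). The table holds 4 mature microRNAs of the same family names that come from hairpins outside Sfmbt2 and were not on the panel. They are printed here 5′ to 3′ with the seed in capitals, for the repeat character of this family.
mmu-miR-467f: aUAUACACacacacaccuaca
mmu-miR-467g: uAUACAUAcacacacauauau
mmu-miR-467h: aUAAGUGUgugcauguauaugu
mmu-miR-669n: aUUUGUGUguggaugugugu
They lie at chr11:69635419-69635439 (minus strand), chr5:34732872-34732892 (minus), chr9:115381898-115381919 (plus) and chr3:115979905-115979924 (plus). Their 4 seeds differ. The first pair is made mostly of A and C, at 85.7% of the bases in mmu-miR-467f, with an unbroken AC repeat of 12 bases there and of 8 bases in mmu-miR-467g. The other pair is made mostly of G and U, at 68.2% of the bases in mmu-miR-467h and 90.0% in mmu-miR-669n. Assays for sequences as repetitive and as closely named as these may read one another's product, which was not tested.

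All 6 members amplified in all 4 samples. Over the panel, 286 and 283 of the 375 microRNAs amplified in ER-alpha KO replicates 1 and 2, and 336 and 283 did in wild-type replicates 1 and 2. PCR gives no read counts, so these numbers are given in their place. They do not follow the median Ct: wild-type replicate 1 has the most amplified microRNAs and the latest median, 29.2 against 27.4 to 28.2 in the other samples. The 14 assays matched to a list of microRNAs of muscle, brain, liver, endothelium, blood and skin were detected (Ct of 35 or lower) in all 4 samples. The list also named miR-206 and miR-144, for which no assay was found. Wild-type replicate 1 stands apart. All its 380 wells other than U6 carry a shared constant of 0.273 cycles, 90.03% of its amplified wells lie within 0.1 cycle of a whole cycle once that is taken off (21.0% to 26.5% of the microRNA wells in the other samples), and 40 microRNAs were detected in it alone. None of those 40 is a member, but the wells of all 6 members in that sample lie within 0.040 cycles of a whole cycle. Their values there thus resolve steps of about 1 cycle. Fold changes, ranks and some counts over the panel are also given without that sample, while median differences and replicate gaps are given with it only.

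**Figure D1:**
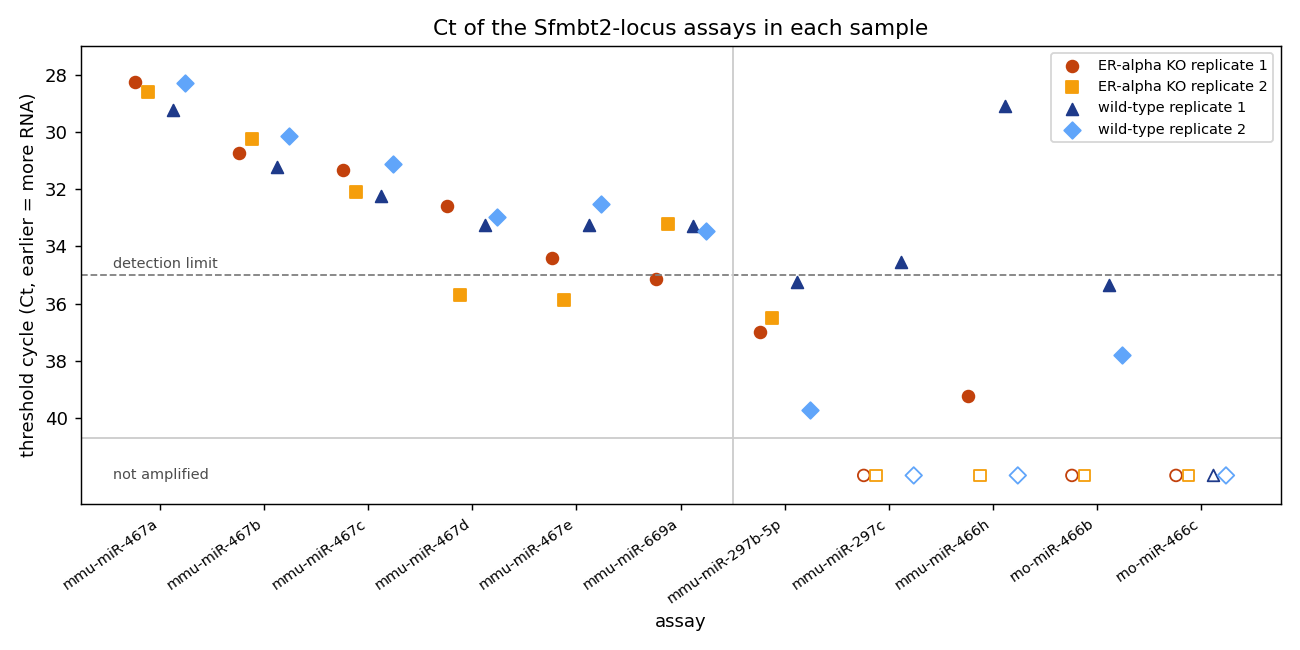
Threshold cycle (Ct, axis inverted so that more RNA is higher) of the 6 miR-467 and miR-669 assays, left, and the 5 other assays of the locus, right, with 1 point per sample. Open symbols in the bottom strip mark wells that did not amplify, and the dashed line is the detection limit at a Ct of 35; all 6 members amplified everywhere, and the 3 points of members below the line belong to ER-alpha KO samples.

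The earliest member was mmu-miR-467a, reported in mouse cells to target thrombospondin-1, an inhibitor of blood vessel growth. Its Ct was 28.3 and 28.6 in ER-alpha KO replicates 1 and 2, against 29.2 and 28.3 in wild-type replicates 1 and 2. At an earlier Ct than it stood 119 and 131 of the 375 microRNAs in the ER-alpha KO samples and 123 and 135 in the wild-type samples. Next came mmu-miR-467b, reported in mouse to target lipoprotein lipase, an enzyme of triglyceride uptake, at a Ct of 30.7 and 30.3 in ER-alpha KO and 31.2 and 30.1 in wild-type samples. After it came mmu-miR-467c, at 31.3 and 32.1 in ER-alpha KO and 32.2 and 31.1 in wild-type samples. For these 3 the genotypes overlap, and the later wild-type well is in each case that of replicate 1, whose Ct values were later over the panel as a whole.

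The other 3 members came up later still, near the detection limit. For mmu-miR-467d the Ct was 32.6 and 35.7 in ER-alpha KO replicates 1 and 2, against 33.2 and 33.0 in wild-type replicates 1 and 2. Replicate 2 of the knockout is the late one, and replicate 1 is earlier than both wild-type samples. For mmu-miR-467e the Ct was 34.4 and 35.9 in ER-alpha KO and 33.3 and 32.5 in wild-type samples. Both knockout wells are later than both wild-type wells. For mmu-miR-669a, reported in mouse heart progenitors to repress the muscle regulator MyoD, it was 35.1 and 33.2 in ER-alpha KO and 33.3 and 33.4 in wild-type samples. Here replicate 1 of the knockout is the late one, so the late wells of the 3 assays do not all fall in the same embryo sample.

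The order of the first 3 was the same in all 4 samples, mmu-miR-467a before mmu-miR-467b before mmu-miR-467c. The order of mmu-miR-467d, mmu-miR-467e and mmu-miR-669a differed between samples, and their mean Ct values over all samples (33.6, 34.0 and 33.8) lie closer together than their knockout replicates do. In wild-type replicate 1 the 3 stood at 33.24, 33.25 and 33.30, on the same whole cycle. Such an order sets assays of unknown efficiency side by side. Of the names with many hairpins, mmu-miR-467a with 10 was earliest in all 4 samples, and mmu-miR-669a with 12 was latest in 3 samples and came before mmu-miR-467d and mmu-miR-467e in ER-alpha KO replicate 2.

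The second question was whether detection differed between genotypes. At a Ct of 35 or lower, 5 and 4 of the 6 members were detected in ER-alpha KO replicates 1 and 2 (83.3% and 66.7%), against 6 and 6 in the wild-type samples. Over all 375 microRNAs the shares detected were 69.3% and 69.1% in ER-alpha KO samples and 77.3% and 67.7% in wild-type samples. The members not detected were mmu-miR-669a in ER-alpha KO replicate 1, and mmu-miR-467d and mmu-miR-467e in ER-alpha KO replicate 2. No member was detected in both samples of a genotype and neither sample of the other.

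The members make up 3 of the 8 microRNAs that were detected in both wild-type samples and missed in at least 1 knockout sample, out of 237 detected in both wild-type samples (3.38%). The opposite pattern, detected in both knockout samples and missed in at least 1 wild-type sample, was met by 20 of 249 microRNAs (8.03%) and by 0 members. Of 37 microRNAs detected in both wild-type samples at a mean wild-type Ct of 32 or later, 7 were missed in a knockout sample (18.9%), the same 3 members among them. The late microRNAs counted in this paragraph were chosen by their wild-type values alone. The opposite count, for those late in the knockout samples, was not made, so this share has nothing to be set against. Without wild-type replicate 1, detection in wild-type rests on the sample left, while a miss in either knockout sample still counts. By that rule 13 of 254 microRNAs detected in wild-type were missed in a knockout sample (5.12%). The opposite, detected in both knockout samples and missed in wild-type, held for 8 of 249 (3.21%). Of 38 detected in wild-type at a Ct of 32 or later, 12 were missed in a knockout sample (31.6%). Shares under this changed rule are not comparable with those from all samples. The same 3 members were in the first and last count, and 0 in the other. The wells that missed the limit did so by 0.14 to 0.86 cycles, and with the limit at a Ct of 38 all 6 members counted as detected in all 4 samples. The other 5 microRNAs of the 8, named after their values were seen, were mmu-miR-293, mmu-miR-345-3p, mmu-miR-448, mmu-miR-540-5p and mmu-miR-668.

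The third question was whether relative levels differed between genotypes. The relative level of an assay is its Ct subtracted from the sample median Ct, the median being over microRNAs detected in every sample, in log2 units. Detection in all 4 samples was met by 229 microRNAs and by 3 members, mmu-miR-467a, mmu-miR-467b and mmu-miR-467c. The level of mmu-miR-467a was -0.06 and -0.79 in ER-alpha KO samples, against 0.00 and -0.94 in wild-type samples. It thus ranged from the median microRNA of a sample down to -0.94 log2 units from it. Both replicate pairs spread over nearly the same range. The mean was -0.43 ± 0.51 in ER-alpha KO and -0.47 ± 0.66 in wild-type samples (SD, n = 2 each), and the log2 fold change was 0.04 with a 95% interval of -1.21 to 1.29 (limma adjusted p = 0.986).

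For mmu-miR-467b the level was -2.55 and -2.43 in ER-alpha KO, against -2.00 and -2.78 in wild-type samples. The knockout values lie between the wild-type ones. The log2 fold change was -0.10, with an interval of -1.35 to 1.15 (limma adjusted p = 0.964). For mmu-miR-467c the level was -3.14 and -4.27 in ER-alpha KO, against -3.01 and -3.77 in wild-type samples. The groups overlap again, and the log2 fold change was -0.32, with an interval of -1.57 to 0.93 (limma adjusted p = 0.939). The standard error was 0.64 log2 units for each, so changes of up to 2.45-fold higher in mmu-miR-467a or 0.336-fold in mmu-miR-467c lie within the intervals.

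By limma, 0 of the 229 microRNAs passed an adjusted p of 0.05 (0%), and 10 had an unadjusted p under 0.05 (4.37%), none of them a member. The median log2 fold change of the 3 tested members was -0.10, beside 0.26 over all 229 microRNAs. Both knockout levels lay above both wild-type levels for 76 of the 229 (33.2%) and below them for 14 (6.11%), and for 0 of the 3 tested members in either direction. Without wild-type replicate 1 the rule is looser, since both knockout levels are set against a single wild-type level. They lay above it for 77 of 241 and below it for 92 of 241 (38.2%), again with 0 of these members. These shares are not comparable with those from all samples. Leaving out a sample moved the log2 fold change of mmu-miR-467a between -0.32 (without ER-alpha KO replicate 1) and 0.33 (without ER-alpha KO replicate 2), so it has no settled sign. Without wild-type replicate 1 the log2 fold changes of mmu-miR-467a, mmu-miR-467b and mmu-miR-467c were 0.18, -0.04 and -0.27.

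**Figure D2:**
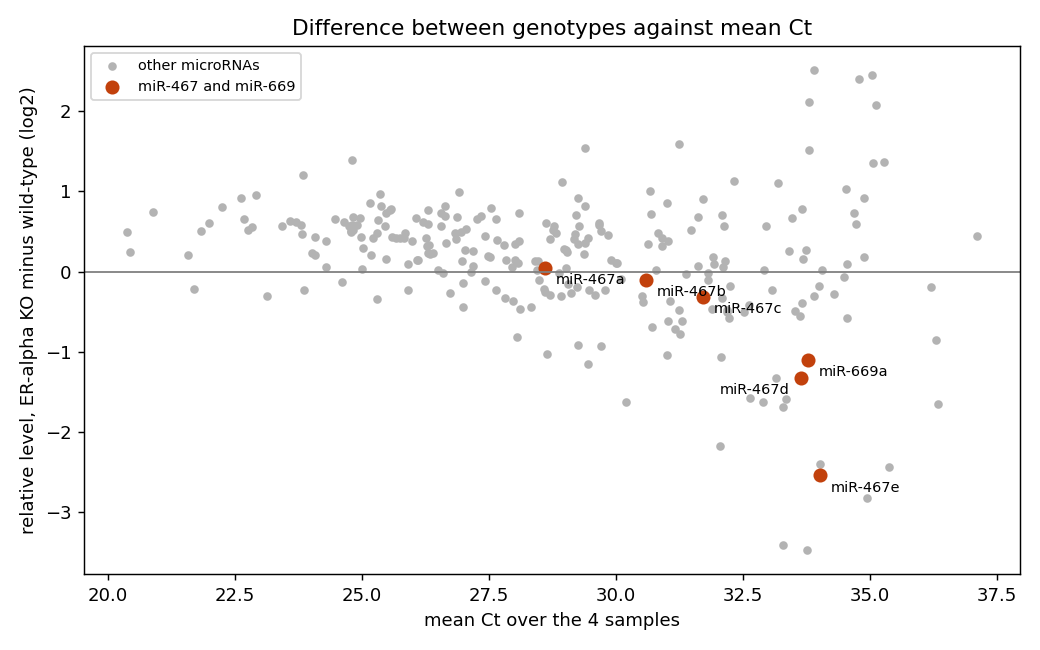
Relative level in ER-alpha KO minus wild-type samples (log2, means of 2 samples each) against the mean Ct over the 4 samples, for the 264 microRNAs that amplified in all 4, with the 6 members in orange. The members with a mean Ct under 32 lie near 0, the later ones lie at -1.10, -1.33 and -2.54, and the grey points also spread more widely at late Ct.

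The 3 late members did not pass the filter, so their differences are given as values from wells near the limit. The level of mmu-miR-467e was -6.20 and -8.04 in ER-alpha KO samples, against -4.02 and -5.14 in wild-type samples. It is the member whose genotypes do not overlap, at a difference of -2.54 log2 units, or 0.172-fold of wild-type. Both knockout levels lay below both wild-type levels for 19 of the 264 microRNAs that amplified in all 4 samples (7.2%). The same held for 11 of the 59 among them with a mean Ct of 32 to 36 over the 4 samples (18.6%). Without wild-type replicate 1 both knockout levels need only lie below the 1 wild-type level left. This looser rule was met by 97 of 264 (36.7%) and 18 of 48 (37.5%), shares not comparable with those above. The only member among them was mmu-miR-467e. By the exact permutation test the two-sided p was 0.333, the smallest that 2 against 2 samples allow. With no filter, limma gave an unadjusted p of 0.063 and an adjusted p of 0.875 for mmu-miR-467e.

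For mmu-miR-467d the level was -4.42 and -7.87 in ER-alpha KO, against -4.01 and -5.63 in wild-type samples. The difference of -1.33 comes from replicate 2 of the knockout, and without it the value was 0.32; without wild-type replicate 1 it was -0.85. For mmu-miR-669a the level was -6.95 and -5.39 in ER-alpha KO, against -4.07 and -6.08 in wild-type samples. The groups overlap, and the difference of -1.10 was -0.42 without wild-type replicate 1 and -0.32 without ER-alpha KO replicate 1. For mmu-miR-467e the same omissions gave -2.31 and -3.46, and the difference was -1.70 without ER-alpha KO replicate 2.

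Among the 264 microRNAs, the differences of mmu-miR-467e, mmu-miR-467d and mmu-miR-669a ranked 4, 14 and 17 from the lowest, and 2, 20 and 52 without wild-type replicate 1. The median difference over all 6 members was -0.71, beside 0.26 over the 264 and -0.17 over the 59 late ones. The median gap between knockout replicates was 1.03 log2 units for the 59 late microRNAs and 0.41 for the 201 with a mean Ct under 32, and between wild-type replicates it was 1.05 and 0.58. The gap of mmu-miR-467d between knockout replicates, 3.46 log2 units, was reached by 4 of the 59 (6.78%), itself included. The difference of mmu-miR-467e was likewise reached by 4 of the 59 (6.78%), itself included.

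**Figure D3:**
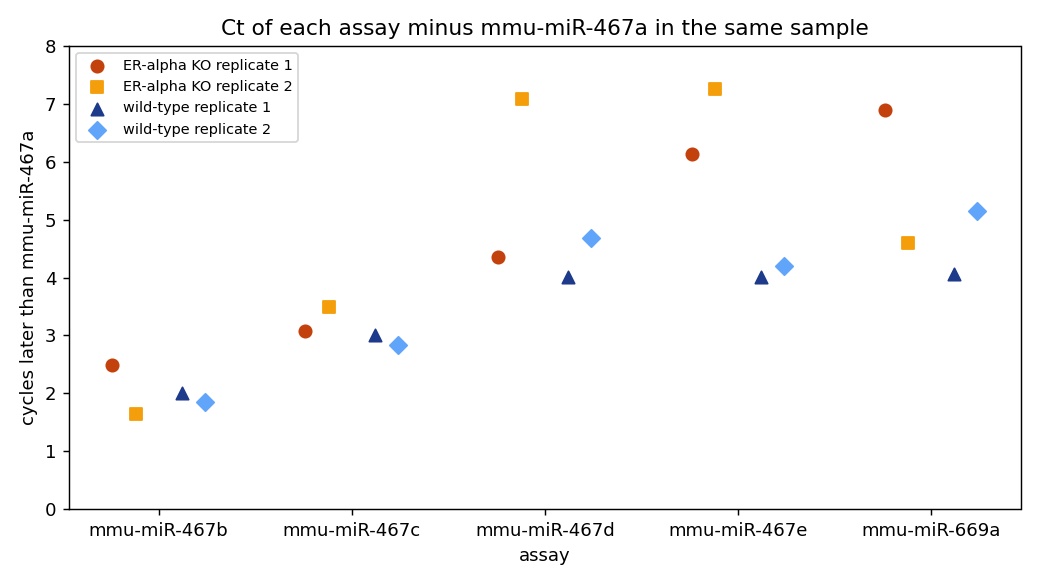
Ct of each member minus the Ct of mmu-miR-467a in the same sample, in cycles, with 1 point per sample (ER-alpha KO left, wild-type right). The 4 points of mmu-miR-467b lie within 1 cycle, as do those of mmu-miR-467c, while mmu-miR-467e stands at 6.14 and 7.25 in ER-alpha KO and 4.02 and 4.21 in wild-type samples.

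Differences between members within a sample need no scaling. Relative to mmu-miR-467a, mmu-miR-467b came up 2.49 and 1.64 cycles later in ER-alpha KO and 2.00 and 1.85 cycles later in wild-type samples. The delay of mmu-miR-467c was 3.08 and 3.48 cycles in ER-alpha KO, against 3.01 and 2.83 cycles in wild-type samples. These do not overlap, but the difference of means is 0.36 cycles, below the step of about 1 cycle in wild-type replicate 1. The delay of mmu-miR-467e was 6.14 and 7.25 cycles in ER-alpha KO, against 4.02 and 4.21 cycles in wild-type samples, a difference of means of 2.58 cycles. The delays overlapped for mmu-miR-467d, at 4.35 and 7.09 cycles in ER-alpha KO and 4.01 and 4.69 in wild-type samples. They also overlapped for mmu-miR-669a, at 6.89 and 4.60 cycles in ER-alpha KO and 4.07 and 5.15 in wild-type samples. The members together spanned 6.89 and 7.25 cycles in ER-alpha KO samples, against 4.07 and 5.15 cycles in wild-type samples. Between the neighbours in the locus, mmu-miR-467e came up 1.79 and 0.16 cycles later than mmu-miR-467d in ER-alpha KO, and 0.01 later and 0.48 earlier in wild-type samples.

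The panel held 5 other assays of the locus, named miR-297 or miR-466. At a Ct of 35 or lower, 0 and 0 of them were detected in ER-alpha KO samples, against 2 and 0 in wild-type replicates 1 and 2. The assay mmu-miR-297b-5p amplified past the limit in all samples, at 37.0 and 36.5 in ER-alpha KO and 35.2 and 39.7 in wild-type samples. For mmu-miR-466h, whose product was reported in hamster cells to promote apoptosis, the Ct was 39.2 in ER-alpha KO replicate 1, the well of replicate 2 did not amplify, and in wild-type replicates 1 and 2 it was 29.1 and not amplified. The assay mmu-miR-297c did not amplify in ER-alpha KO samples, and its Ct was 34.6 and not amplified in wild-type replicates 1 and 2. These 2 wells of wild-type replicate 1 lie 0.161 and 0.289 cycles from a whole cycle, unlike those of the 6 members, and both assays are among the 40 detected in that sample alone. The rat-sequence assay rno-miR-466b did not amplify in ER-alpha KO samples and came up at 35.4 and 37.8 in wild-type replicates 1 and 2, and rno-miR-466c amplified in 0 samples.

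Since the cluster is known from placenta and stem cells, the 12 assays for placental or pluripotent microRNAs (miR-290 to miR-295, miR-302 and miR-367) were read beside it. Of these, 0 were detected in all 4 samples and 7 in none. The numbers detected were 3 and 4 in ER-alpha KO, against 2 and 4 in wild-type samples. Their summed level was -4.11 and -3.48 log2 units relative to the median microRNA in ER-alpha KO samples, against 0.41 and -3.88 in wild-type replicates 1 and 2. The high value of wild-type replicate 1 goes with 2 early wells, mmu-miR-302c at a Ct of 29.4 and mmu-miR-293 at 30.4; mmu-miR-302c did not amplify elsewhere. The part of such cells in the levels of the members was not tested.

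By the smallest distance between level profiles over the 4 samples, each minus its own mean, the microRNAs most like mmu-miR-467a were mmu-miR-331-3p (0.17 log2 units), mmu-miR-24 (0.19) and mmu-miR-434-5p (0.23). The median distance from mmu-miR-467a over the 228 other tested microRNAs was 0.97. For mmu-miR-467b they were mmu-miR-100 (0.19), mmu-miR-382 (0.20) and mmu-let-7f (0.21), beside a median of 0.99. For mmu-miR-467c they were mmu-miR-34a (0.25), mmu-miR-15a (0.31) and mmu-miR-130b (0.34), beside a median of 1.17. No member was among the 3 nearest of another: seen from mmu-miR-467a, mmu-miR-467c was number 28 and mmu-miR-467b number 49 of the 228. Seen from mmu-miR-467c, mmu-miR-467a was number 11, at a distance of 0.48, and without wild-type replicate 1 it was number 45 of 240. Seen from mmu-miR-467a without that sample, mmu-miR-467c was number 132 and mmu-miR-467b number 161 of 240. Every place of one member seen from another was later without that sample. With 4 samples, of which wild-type replicate 1 moves many assays together, these distances are a description.

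**Figure D4:**
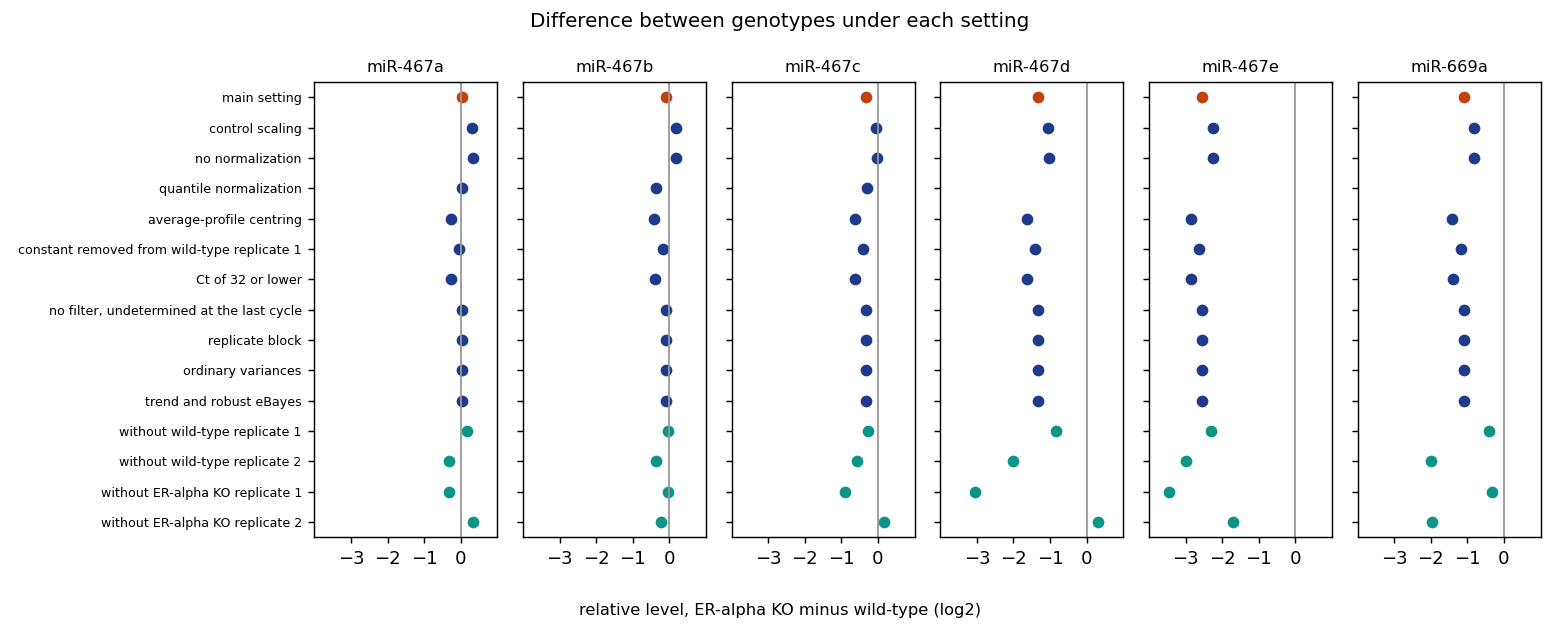
Relative level in ER-alpha KO minus wild-type samples (log2) of each member under the main setting (orange), each alternative that keeps all samples (blue) and each sample left out (green). The values of mmu-miR-467e stay between -3.46 and -1.70, those of mmu-miR-467a lie on both sides of 0, and mmu-miR-467d moves to 0.32 without ER-alpha KO replicate 2.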

How the data were processed

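The authors deposited threshold cycles (Ct), 1 per well and 4 for U6, per the file headers; the assays ran for 40 cycles on a 7900HT instrument, per the labels. Its threshold, baseline and normalization are not given in the sources used here. Wells written as undetermined, and the 39 wells of wild-type replicate 1 that stand above the last cycle, were taken as not amplified. Each sample was centred on its median Ct over the microRNAs detected in every sample (a Ct up to 35; medians 28.2 and 27.8 in ER-alpha KO, 29.2 and 27.4 in wild-type replicates 1 and 2), and the level is minus the centred Ct. The genotypes were set against each other in limma 3.58.1 (R 4.3.3; two-sided eBayes test on an lmFit model with genotype alone), adjusting by Benjamini-Hochberg over 229 microRNAs. Infinite prior degrees of freedom gave every assay the same standard error. Sample titles number the embryos (1 and 2 per genotype) without stating pools or litters, so the p-values cover the spread among these 4 samples only, which may be technical.

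Named microRNAs are all members, the miR-297 and miR-466 assays, and the 3 nearest level profiles of each tested member; a rule on shared seeds could not be applied without member sequences. The members and lists were chosen with earlier results of these data known. Hairpin names and order come from the RefSeq annotation of GRCm38.p6. Python 3.11.15 with pandas 2.3.3 read the tables, the exact permutation test used scipy 1.17.1 and figures used matplotlib 3.10.9. Alternatives were other scalings, other detection limits, no filter, other variance models, the replicate number as a block, wild-type replicate 1 without its constant, and each sample left out; counts over the panel, ranks and nearest profiles without wild-type replicate 1 were added after seeing the data.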

Additional observations from a re-analysis of the deposited data

How the results depend on the processing

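With all samples kept, the count of microRNAs past the adjusted threshold was 0 under every alternative but the replicate block, where limma called 1, not a member; samples with the same number shared deviations (r = 0.37 across the tested assays), but the labels do not say what a number marks. The block left the members' fold changes as they were (limma adjusted p 0.82 to 0.98). The 3 tested members passed under no alternative (smallest limma adjusted p 0.807 with all samples, 0.455 with a sample left out). The log2 fold change of mmu-miR-467a turned to -0.27 with average-profile centring, -0.25 at a Ct of 32 or lower and -0.042 with the constant removed, and that of mmu-miR-467b to 0.18 with control scaling and 0.19 with no normalization. The median over all tested microRNAs moved too, being 0.26 here, 0.54 with control scaling, 0.55 with no normalization, 0.05 with quantile normalization and -0.05 with average-profile centring. With a sample left out the ranges were -0.32 to 0.33 for mmu-miR-467a, -0.38 to -0.04 for mmu-miR-467b and -0.89 to 0.17 for mmu-miR-467c. They were -3.06 to 0.32 for mmu-miR-467d, -3.46 to -1.70 for mmu-miR-467e and -1.99 to -0.32 for mmu-miR-669a. With all samples kept the last 3 stayed at -1.64 to -1.04, -2.85 to -2.25 and -1.41 to -0.81; quantile normalization gives them no value, since they are outside its filter. At a Ct of 32 or lower, 3 and 2 members were detected in ER-alpha KO and 2 and 3 in wild-type replicates 1 and 2. Members detected in the wild-type samples kept and in no knockout sample kept numbered 0 to 2 with a sample left out. The causes were not tested. Precision is limited by 2 samples per group, by the late Ct of 3 of the 6 members and by the coarse steps of wild-type replicate 1.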
